A study of Mus musculus with 105 samples.

Results

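The cytosolic ribosomal protein genes of mouse embryonic stem cells were followed across 31 groups of 3 libraries. Members were chosen by name: symbols made of Rpl or Rps, a number and at most a short letter or digit ending, together with Rpsa, Rplp0, Rplp1 and Rplp2. Symbols annotated as pseudogenes were left out (5 symbols: Rpl6l, Rps12l1, Rps3a2, Rps3a3 and Rps4l). This gave 84 genes, of 27179 Entrez identifiers in the files of 3 datasets, and 83 genes, of 53656 symbols in the merged tables of the other 2 datasets, where Rpl32l is not a row. No measured value entered the choice. Between 83 and 84 of the genes passed the filter on low counts in each dataset.

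The series asks how histone modifications repress transcription, and it does so by removing or rewiring SUZ12, a core subunit of the Polycomb complex PRC2 that methylates histone H3 on lysine 27. Poly(A) RNA was sequenced in 5 datasets that were each fitted on their own. The fusion panel (E14TG2a cells in serum with LIF) held a Suz12 KO line, the KO with wild-type SUZ12, the KO with S12N (a SUZ12 that lacks the VEFS domain), the KO with S12N fused to SUV2 or SD2, the KO with versions of both fusions that the titles call dead, and WT cells. The RBBP5 SUV2 set (E14TG2a) held a line with RBBP5 tagged with FKBP, called R here, R with Suz12 KO, called RS, and RS with S12N:SUV2, each given dTAG13 or DMSO for 24 h; its dose was not given in the labels. RBBP5 is a core subunit of the COMPASS complexes that methylate histone H3 on lysine 4, and dTAG molecules degrade FKBP-tagged proteins. The RBBP5 SD2 set had the same design with S12N:SD2 in place of S12N:SUV2, and 500 nM dTAG-13 or DMSO for 24 h. In the SUZ12 degron set (a line labelled TCF, with SUZ12-mAID and OsTIR) cells received 50 µM IAA, an auxin that triggers loss of the tagged protein, for between 2 and 48 h (2, 4, 8, 24 and 48 h). Their controls had DMSO for 48 h. The HP1 set (E14Tg2a) held a Suz12 knockout line and 3 knockout lines that express full-length SUZ12, S12N (labelled dVEFS) or S12N joined to an HP1a chromodomain, beside wild type. Every RS group carries the tag of R as well as the knockout, and every fusion line carries the knockout. Each genotype is a line of its own, so its effect and a difference between lines cannot be told apart. The labels do not spell out SUV2 or SD2. The groups given the KDM4 inhibitor QC6352 were not analysed here.

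The cytosolic ribosome is built from a small 40S and a large 60S subunit, and nearly every ribosomal protein is present in 1 copy per ribosome. Their mRNAs are among the most abundant in a growing cell; most begin with a C followed by a run of pyrimidines, the 5′ TOP motif through which mTOR signalling controls their translation. Free Rpl5 and Rpl11, which travel with the 5S rRNA, bind MDM2 and so tie ribosome assembly to p53. Several members have a paralog with restricted expression in mouse: Rpl10l and Rpl39l in male germ cells, where Rpl10l covers for the X-linked Rpl10, Rpl3l in striated muscle, Rpl22l1, whose mRNA is repressed by the Rpl22 protein, and Rps27l, a p53 target.

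The promoters of the paralog pairs that moved apart in these data, and of Rps21, Rps28 and Rps6, to which the panel results return, are shown as 60 bases before and 20 bases from the annotated start (RefSeq, GRCm38.p6, 5′ to 3′ along the gene). Capitals mark a match, on either strand, to CCGGAAG (an ETS-type motif), AANATGGC (none in these stretches), TATAAA (which in Rpl22l1 matches on both strands and so covers more letters) or TCTCGCGAGA, or a C and at least 4 further pyrimidines at the annotated start.
Rpl10l chr12:66284382-66284461 minus strand: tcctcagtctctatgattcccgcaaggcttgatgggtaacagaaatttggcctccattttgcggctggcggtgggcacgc
Rpl10 chrX:74270756-74270835 plus strand: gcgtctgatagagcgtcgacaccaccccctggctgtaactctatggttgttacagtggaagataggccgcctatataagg
Rpl39l chr16:10170168-10170247 plus strand: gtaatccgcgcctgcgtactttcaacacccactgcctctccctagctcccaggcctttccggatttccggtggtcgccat
Rpl39 chrX:37085203-37085282 minus strand: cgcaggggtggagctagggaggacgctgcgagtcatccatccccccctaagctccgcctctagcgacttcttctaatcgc
Rpl22l1 chr3:28805448-28805527 plus strand: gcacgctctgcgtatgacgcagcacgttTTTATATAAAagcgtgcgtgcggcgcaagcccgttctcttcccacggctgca
Rpl22 chr4:152325666-152325745 plus strand: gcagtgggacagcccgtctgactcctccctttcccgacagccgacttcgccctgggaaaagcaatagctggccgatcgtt
Rps27l chr9:66946026-66946105 plus strand: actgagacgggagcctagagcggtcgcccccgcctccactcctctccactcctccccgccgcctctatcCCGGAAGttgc
Rps27 chr3:90213629-90213708 minus strand: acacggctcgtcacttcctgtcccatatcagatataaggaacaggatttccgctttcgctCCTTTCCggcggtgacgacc
Rps21 chr2:180257319-180257398 plus strand: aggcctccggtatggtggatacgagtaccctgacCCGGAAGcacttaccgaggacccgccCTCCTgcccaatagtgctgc
Rps28 chr17:33824543-33824622 minus strand: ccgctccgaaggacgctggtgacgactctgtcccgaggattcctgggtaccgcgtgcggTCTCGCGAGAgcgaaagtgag
Rps6 chr4:86857348-86857427 minus strand: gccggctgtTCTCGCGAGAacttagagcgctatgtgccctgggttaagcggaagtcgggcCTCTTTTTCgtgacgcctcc

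In this window Rpl10l and Rpl39l, and their X-linked partners Rpl10 and Rpl39, held no capital; Rpl22l1 held TATAAA and its partner Rpl22 none; Rps27l held CCGGAAG near its start and Rps27 a pyrimidine run there. Rps28 and Rps6 held the TCTCGCGAGA palindrome. Over the whole 300-base window (250 bases before and 50 from the start), 64 of the 84 members matched a promoter by gene identifier. They were set beside all 27025 genes with a promoter. CCGGAAG was in 26 members (40.6%) and in 9.93% of all genes, and TCTCGCGAGA in 6 members (9.38%) and in 0.525%. AANATGGC, the YY1-type motif, was in 13 members (20.3%) against 6.96%. TATAAA (8 members, 12.5%, against 15.7%) and CACGTG (6 members, 9.38%, against 8.09%) were about as frequent in both. A pyrimidine run began at the annotated start itself in 14 members (21.9%) against 3.01%, and within 10 bases of it in 40 members (62.5%) against 34.4%. A gene with several annotated starts counted if any of its windows matched. For CpG dinucleotides the richest window of each gene was taken, with a median of 21 in the members and 8 over all genes. All motifs were searched on both strands except the pyrimidine run, and CCGGAAG and TCTCGCGAGA may overlap other matches; a match describes letters, not binding.

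Library totals were 8.80 to 29.97 M counts in the panel, 18.59 to 22.26 M in the RBBP5 SUV2 set, 11.44 to 17.78 M in the RBBP5 SD2 set, 8.31 to 18.81 M in the degron set and 5.48 to 21.72 M in the HP1 set. In the panel the Suz12 KO and WT libraries held 8.80 to 10.69 M counts and the others 17.04 to 29.97 M. The deposited table names those 6 columns as one family (Ebdiff, day0) and the other panel columns differently, so in each comparison of a line with a construct against Suz12 KO the column family and the group cannot be told apart. The members took 5.98 to 8.19% of a panel library, 4.56 to 5.29% in the RBBP5 SUV2 set, 4.56 to 8.34% in the RBBP5 SD2 set, 9.29 to 19.68% in the degron set and 4.94 to 5.51% in the HP1 set. Libraries that stood apart from their group were in R with dTAG-13 of the RBBP5 SD2 set, where the members took 4.98, 5.23 and 8.34%, and at 24 h of IAA, where they took 18.25, 19.68 and 10.51%. Suz12 RNA was at 45.6, 55.7 and 66.7 CPM (counts scaled by the TMM-adjusted library size) in Suz12 KO libraries of the panel and 271, 291 and 319 CPM in WT, and it was likewise lower in all 3 RS or knockout libraries than in all 3 R or wild-type libraries of the other 3 sets with a knockout. The degrader and IAA act on protein, so RNA gives no check of them. The primitive endoderm list (8 markers) summed to 0.0460 to 0.0873% of counts in Suz12 KO libraries against 0.00321 to 0.00364% in WT libraries of the panel, with none of its markers at 0. All 8 were called higher in the Suz12 losses of the panel, the RBBP5 SUV2 set, the RBBP5 SD2 set and the HP1 set (median log2 fold changes 3.47, 5.44, 6.76 and 3.90). Of the other marker lists in the panel's knockout, pluripotency gave 4 higher and 3 lower of 8 tested (median 0.07), trophoblast 4 higher and 0 lower of 5 tested (median 1.54), fibroblast 3 higher and 0 lower of 3 tested (median 3.06) and neural 1 higher and 3 lower of 5 tested (median -0.86). The part of these markers in the results that follow was not tested. In bulk RNA, fewer cells of a type and less RNA per cell cannot be told apart.

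**Figure D1:**
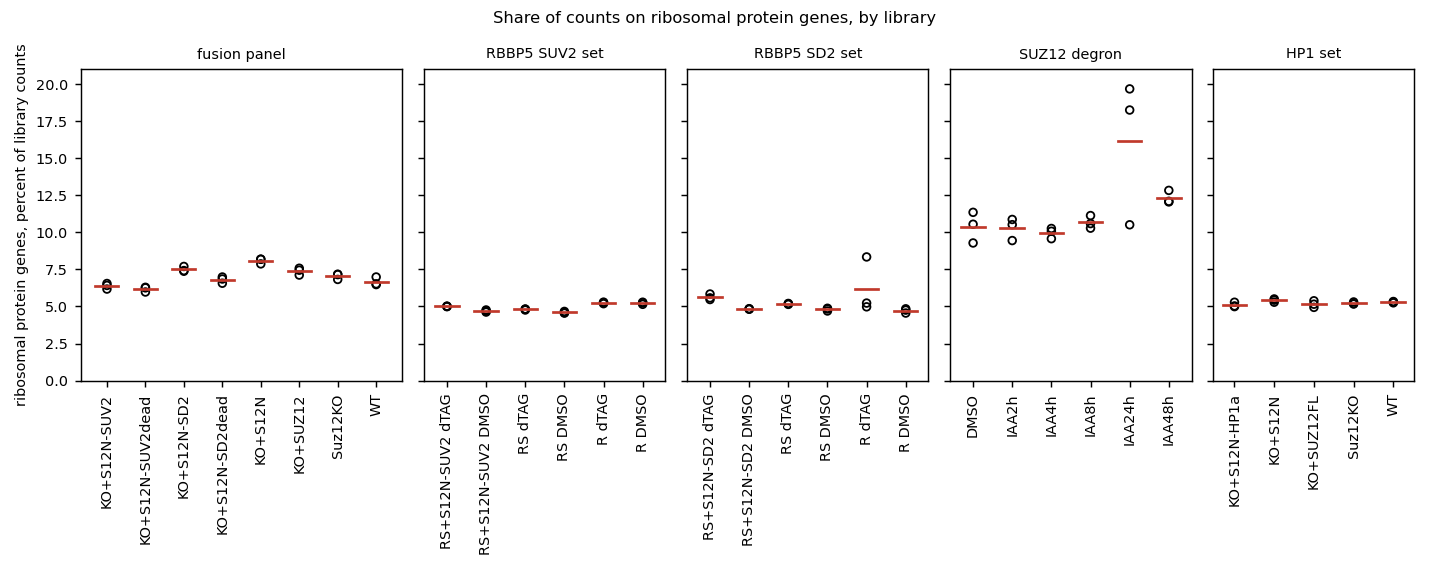
Share of each library's counts that fell on the ribosomal protein genes, in percent, by group and dataset; circles are libraries and red bars group means. In the panel, KO + S12N libraries (7.88 to 8.19%) lie above the other groups; at 24 h of IAA, and in R with dTAG-13 of the RBBP5 SD2 set, 1 library lies far from the other 2.

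Levels within the family spanned several orders of magnitude. Set per kilobase of the main transcript, the median member was at 944 CPM per kb in panel WT, 682 in R with DMSO of the RBBP5 SUV2 set, 699.7 in R with DMSO of the RBBP5 SD2 set, 1221 in degron DMSO and 775 in HP1-set wild type. The highest per-kb level belonged to Rplp1 (a stalk protein, 3447 CPM per kb) in the panel, to Rpl8 (a core 60S protein) in both RBBP5 sets and the HP1 set (3019, 2294 and 2614) and to Rpl32 (60S) in the degron set (7225). Per kb, every restricted paralog lay below its partner in panel WT. Rpl10l was at 16.1 CPM per kb against 1303 for Rpl10, and Rpl39l at 22.1 against 416 for Rpl39. Rpl3l was at 0.623 against 1189 for Rpl3, and it was the lowest member by CPM in the RBBP5 SD2, degron and HP1 sets. Rps27l reached 471 against 2000.4 for Rps27, Rpl22l1 259 against 1626 for Rpl22 and Rpl7l1 115 against 1459.5 for Rpl7.

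Ribosomal protein genes have many processed pseudogenes, and how reads shared with them are counted can set part of a member's level. In R cells with DMSO, which both RBBP5 sets contain, 65 of 83 members were within 2-fold between the set counted by gene symbol and the set counted by Entrez identifier. Another 12 were over 2-fold higher in the RBBP5 SD2 set and 6 over 2-fold higher in the RBBP5 SUV2 set. Rpl39 was at 9.69 CPM in the SD2 set and 166.9 CPM in the SUV2 set, and Rpl29 at 6.72 and 97.7 CPM. Rpl24 was at 579 CPM in the SD2 set and 0.290 CPM in the SUV2 set, and was the lowest member in both datasets counted by symbol. The sets also differ in aligner, counting tool and gene identifiers. The part of these, or of reads shared with pseudogenes, was not tested. Levels of members that differ in this way are uncertain, and comparisons were kept within a dataset.

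Loss of SUZ12 changed few ribosomal protein mRNAs past the test in the panel. Against WT, Suz12 KO cells had 4 members higher and 10 lower of 83, while 23.8% of the 16230 tested genes were called higher and 23.2% lower. The median log2 fold change of the members was -0.03 (quartiles -0.09 to 0.02), beside -0.02 over all tested genes. The small excess of lower members depended on scaling: median-of-ratios size factors gave 7 higher and 5 lower, and library totals alone, under which the median of all genes moved to 0.10, gave 25 higher and none lower. Without WT replicate 1 the counts were 6 higher and 3 lower. The numbered replicates of this comparison paired by their correlations, and with replicate as a block 5 were higher and 11 lower. The 4 members called higher were the paralogs Rpl10l, Rpl39l, Rpl22l1 and Rps27l. Among the lower ones, Rps21 of the 40S subunit was at 756, 737 and 689.9 CPM in Suz12 KO and 908, 829.9 and 840.0 CPM in WT (log2 fold change -0.24, SE 0.06, adjusted p = 0.0019). Lack of overlap between the 2 lines was a condition for naming Rps21. Over the family, 15 members lay wholly below WT and 6 wholly above. The share of all tested genes without overlap was not computed, so these counts have no background.

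In the HP1 set, 6 members were higher and 35 lower of 83 in the Suz12 knockout against wild type (median -0.09, all genes 0.01), where 22.2% of the 14026 tested genes were called higher and 19.6% lower. On library totals alone the split was 9 higher and 12 lower. Split by subunit, 1 rose and 15 fell of the 40S members, and 5 rose and 20 fell of the 60S members. Rps21 was again among the lower ones, at 761, 773 and 748 CPM in the knockout and 934, 871 and 916 CPM in wild type (log2 fold change -0.25, SE 0.04, adjusted p = 5.20e-07). Rps14, a 40S protein of the platform, fell by 0.22 on the log2 scale. Primitive endoderm markers summed to 0.0581 to 0.0596% of counts in the knockout and 0.00581 to 0.00614% in wild type.

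In the RBBP5 SUV2 set most members were lower in RS than in R. With DMSO, 3 of 83 members were higher and 74 lower in RS against R (median -0.29, quartiles -0.34 to -0.21, all genes 0.01), where 36.9% of the 15757 tested genes were called higher and 34.9% lower. Both subunits took part, with 1 higher and 31 lower of the 40S members and 2 higher and 43 lower of the 60S members. On library totals alone the median of all genes moved to 0.12. Rps20, a 40S protein, was at 1049.6, 1018 and 1040.0 CPM in RS and 1440.4, 1400.1 and 1408 CPM in R (log2 fold change -0.45, SE 0.02, adjusted p = 3.30e-18). The members' share of counts was 4.56 to 4.67% in RS and 5.15 to 5.29% in R. In the RBBP5 SD2 set the shares with DMSO overlapped, at 4.70 to 4.88% in RS and 4.56 to 4.84% in R. The same genotypes in the RBBP5 SD2 set gave 4 higher and 4 lower of 84 (median -0.06, all genes 0.02), where 31.8% of the 15211 tested genes were called higher and 27.2% lower, and 12 higher and 2 lower on library totals alone. The common biological coefficient of variation was 0.0281 in the SUV2 set and 0.0881 in the SD2 set. Of 83 members tested in both sets, Rpl10l, Rpl39l and Rps27l were higher in RS in both, and Rpl13, Rpl7l1 and Rps27 were among the lower ones in both. Primitive endoderm markers summed to 0.0733 to 0.0810% of counts in RS and 0.00183 to 0.00191% in R of the SUV2 set.

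**Figure D2:**
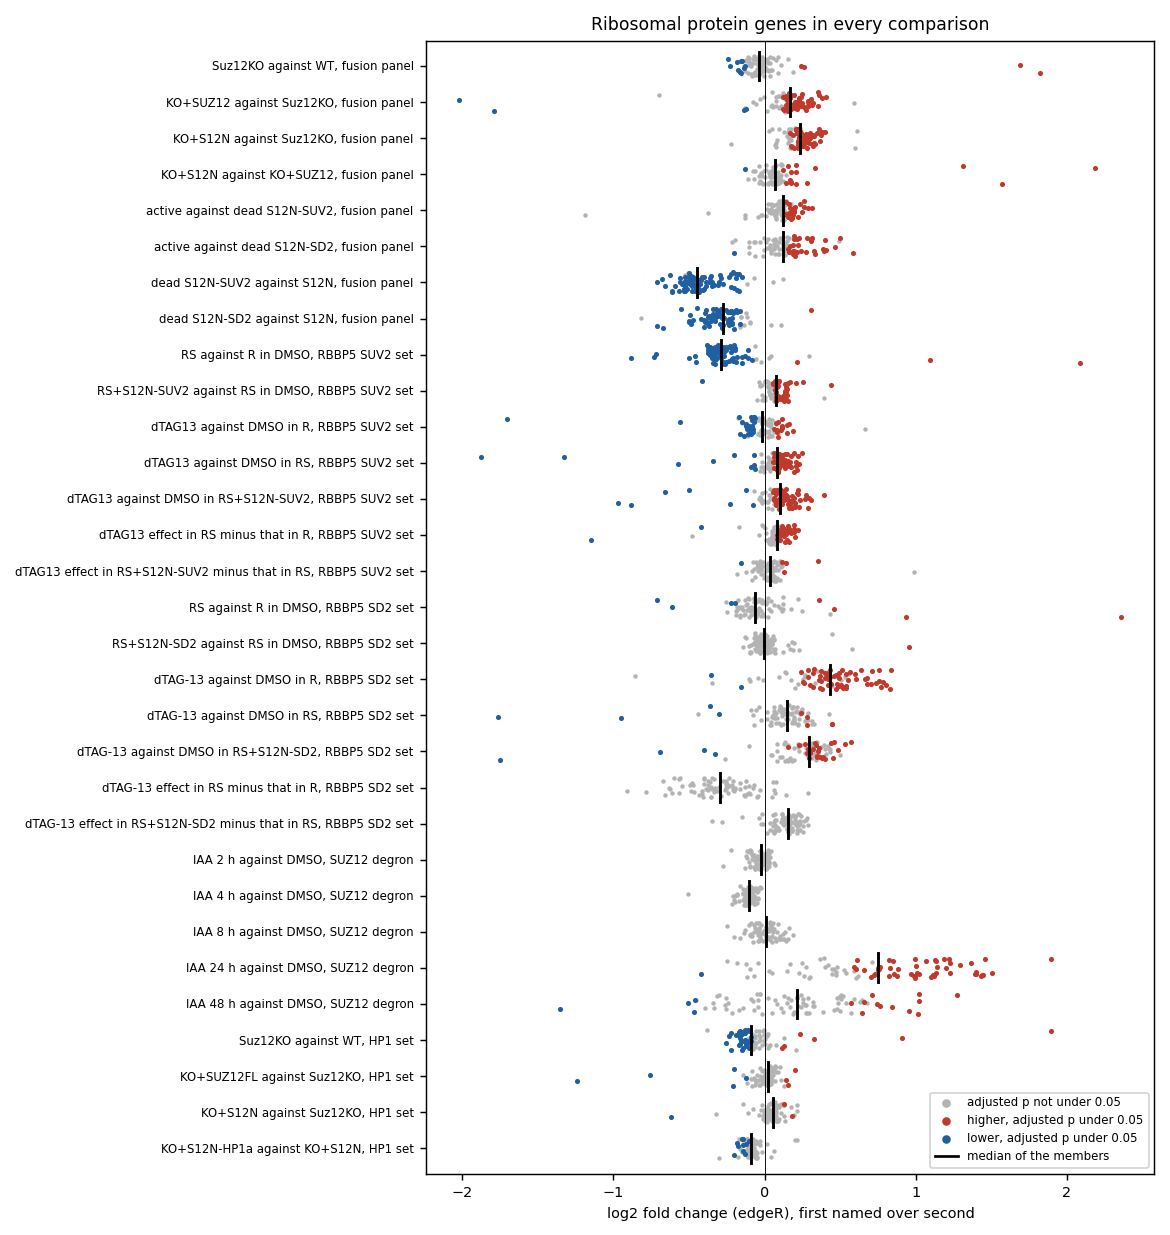
Log2 fold changes of the ribosomal protein genes in each comparison, 1 dot per member; red dots were called higher and blue dots lower at an adjusted p under 0.05 (edgeR), grey dots were not called, and black bars are medians. The dots far to the right in the 4 SUZ12 losses are Rpl10l and Rpl39l, while the other members lie near 0 or, in RS against R of the RBBP5 SUV2 set, around a median of -0.29.

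Rpl10l and Rpl39l, the germ-cell paralogs, were called higher in every SUZ12 loss, the only 2 of 82 members tested in all 4 that were. The share of all genes called in 1 direction in all 4 was not computed. In the single losses 23.8%, 36.9%, 31.8% and 22.2% of tested genes were called higher in the panel, SUV2, SD2 and HP1 sets. Rpl10l was at 54.1, 72.3 and 48.7 CPM in Suz12 KO against 14.6, 19.2 and 15.5 CPM in WT of the panel (log2 fold change 1.82, SE 0.12, adjusted p = 4.39e-12). In the HP1 set it was at 80.4, 76.5 and 70.2 CPM in the knockout and 17.8, 23.2 and 20.5 CPM in wild type (log2 fold change 1.89, SE 0.10, adjusted p = 5.82e-21). With DMSO it was at 43.2, 39.9 and 42.3 CPM in RS and 19.7, 20.96 and 18.003 CPM in R in the SUV2 set (log2 fold change 1.09, SE 0.05, adjusted p = 7.97e-18), and 49.9, 50.1 and 51.4 CPM in RS and 25.5, 28.05 and 25.5 CPM in R in the SD2 set (log2 fold change 0.94, SE 0.10, adjusted p = 2.33e-07). In each of these 4 comparisons the 3 libraries without SUZ12 all lay above the 3 with it. The X-linked Rpl10 moved little in the same comparisons, with log2 fold changes of -0.13 in the panel, -0.13 in the HP1 set and -0.19 in the SUV2 set, all called lower, and 0.00, adjusted p = 0.94, in the SD2 set.

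Rpl39l behaved alike in direction, with a different ranking of the datasets. It was at 53.9, 63.9 and 55.3 CPM in Suz12 KO and 18.4, 20.8 and 14.1 CPM in WT (log2 fold change 1.69, SE 0.13, adjusted p = 1.18e-10), and at 46.3, 41.5 and 47.9 CPM in the knockout and 23.7, 23.4 and 24.6 CPM in wild type of the HP1 set (log2 fold change 0.91, SE 0.11, adjusted p = 1.73e-09). In the SUV2 set RS had 26.3, 24.01 and 25.4 CPM and R 6.04, 6.14 and 5.57 CPM (log2 fold change 2.09, SE 0.08, adjusted p = 2.70e-20). In the SD2 set RS had 33.9, 36.998 and 36.1 CPM and R 6.87, 6.68 and 7.29 CPM (log2 fold change 2.36, SE 0.13, adjusted p = 5.36e-11). Rpl39, its partner at the peptide exit tunnel, gave log2 fold changes of -0.07, adjusted p = 0.37, in the panel and -0.06, adjusted p = 0.86, in the HP1 set, and fell in the SUV2 set (-0.30). Rpl7l1, an assembly factor related to Rpl7, was the 1 member lower in all 4 losses, with log2 fold changes of -0.23, -0.11, -0.20 and -0.24 in the panel, SUV2, SD2 and HP1 sets; on library totals alone its value in the SUV2 set was 0.0028. In the panel it was at 254, 273 and 243 CPM in Suz12 KO and 292, 325 and 283 CPM in WT. The annotated pseudogene Rps4l, left out of the members, had log2 fold changes of 0.49 in the panel and 0.78 in the HP1 set, both called.

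**Figure D3:**
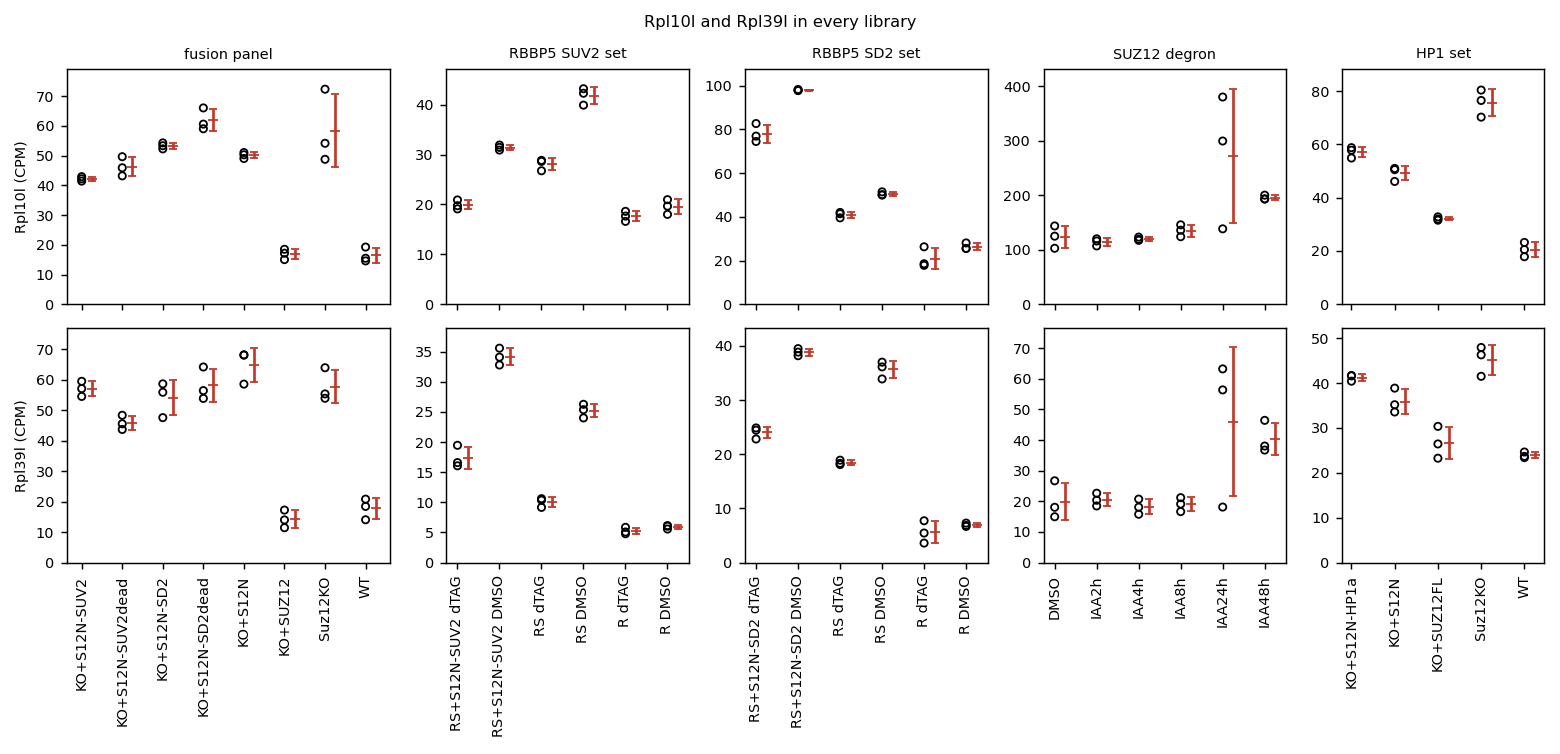
CPM of the paralogs by group; circles are libraries, red marks the mean ± SD of 3. In the panel Rpl10l lies between 48.7 and 72.3 CPM in Suz12 KO, against 14.6 to 19.2 CPM in WT, and returns to 15.01 to 18.5 CPM with SUZ12.

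Putting SUZ12 back lowered both germ-cell paralogs. KO + SUZ12 cells of the panel had 17.2, 15.01 and 18.5 CPM of Rpl10l, against the Suz12 KO values above (log2 fold change -1.79, SE 0.11, adjusted p = 7.25e-13), and 14.01, 11.5 and 17.2 CPM of Rpl39l (log2 fold change -2.02, SE 0.13, adjusted p = 9.05e-13). In the HP1 set full-length SUZ12 left Rpl10l at 31.5, 31.99 and 32.8 CPM (log2 fold change -1.24, SE 0.09, adjusted p = 2.11e-15 against the knockout), and Rpl39l at 23.3, 30.4 and 26.4 CPM (log2 fold change -0.76, SE 0.10, adjusted p = 1.22e-07). Suz12 RNA was at 164, 169.6 and 172 CPM in those cells and 285, 292 and 309.6 CPM in wild type. S12N did not bring the panel's Rpl10l down past the test: KO + S12N cells had 50.2, 51.001 and 48.99 CPM (log2 fold change against Suz12 KO -0.22, adjusted p = 0.27). Against KO + SUZ12 they were higher by 1.57 for Rpl10l and 2.19 for Rpl39l on the log2 scale. In the HP1 set S12N did lower Rpl10l, to 50.5, 46.1 and 50.97 CPM (log2 fold change -0.62, SE 0.08, adjusted p = 3.52e-06).

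Most other members were higher in KO + SUZ12 than in Suz12 KO in the panel. These groups also differ in column family and depth, which cannot be told apart from the return of SUZ12. KO + SUZ12 cells had 55 of 83 members higher and 4 lower than Suz12 KO (median 0.17, quartiles 0.11 to 0.23, all genes 0.02), where 24.4% of the 16230 tested genes were called higher and 24.2% lower. Of the 40S members 26 rose and 1 fell, and of the 60S members 29 rose and 3 fell. Rps27a, which is made as a fusion with ubiquitin, was at 1131, 1202 and 1128 CPM in KO + SUZ12 and 917, 902 and 873 CPM in Suz12 KO (log2 fold change 0.36, SE 0.05, adjusted p = 8.83e-07). Rps21 was at 907, 978 and 1009 CPM (log2 fold change 0.41, SE 0.06, adjusted p = 3.61e-06), and Rpl30, a 60S protein, rose by 0.35 on the log2 scale. Rpl15 was among the 4 lower members (-0.12). On library totals alone the split was 21 higher and 7 lower, and without Suz12 KO replicate 3 it was 33 higher and 3 lower. In the HP1 set full-length SUZ12 gave 3 higher and 5 lower of 83 (median 0.02, all genes 0.00), where 12.3% of the 14026 tested genes were called higher and 14.1% lower, and 3 higher and 8 lower on library totals alone. There Rps21 rose by 0.20, Rpl27 (60S) by 0.16 and Rps14 by 0.14 on the log2 scale, and Rpl15 fell by 0.20.

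KO + S12N cells had the highest ribosomal protein mRNA share of the panel. Against Suz12 KO, 57 of 83 members were higher and 0 lower (median 0.24, quartiles 0.18 to 0.29, all genes -0.01), while 1.9% of the 16230 tested genes were called higher and 1.92% lower. Of the 40S members 26 rose, and of the 60S members 31 rose. Rps27, a zinc-finger protein of the 40S subunit, was at 845, 837 and 853 CPM in KO + S12N and 646, 663 and 615 CPM in Suz12 KO (log2 fold change 0.40, SE 0.06, adjusted p = 2.20e-04). Rpl39 was at 330.2, 308 and 313 CPM in KO + S12N and 248, 249 and 232 CPM in Suz12 KO (log2 fold change 0.38, SE 0.06, adjusted p = 2.93e-04), and Rpl31, which sits beside the exit tunnel, rose by 0.37. The count was 28 without Suz12 KO replicate 3 and 36 without KO + S12N replicate 1. Nuclear-encoded genes of oxidative phosphorylation gave 17 higher and 0 lower of 74 tested (median 0.17) and annotated rRNA genes 6 higher and 0 lower of 6 tested (median 3.47). The rRNA genes took 0.0805 to 1.08% of counts in KO + S12N and 0.0324 to 0.0594% in Suz12 KO. Ribosome biogenesis factors gave 0 higher and 2 lower of 39 tested (median -0.04), mitochondrial ribosomal proteins 1 higher and 0 lower of 76 tested (median 0.06) and proteasome subunits 0 higher and 1 lower of 31 tested (median 0.03). The share of rRNA reads and the depth moved with the groups; their part was not tested. Against KO + SUZ12, KO + S12N had 15 members higher and 1 lower (median 0.07, all genes -0.02), where 23.8% of the 16230 tested genes were called higher and 23.9% lower, and 10 were called without KO + S12N replicate 1; DESeq2 called 28 and library totals alone 44, all of them higher. Rpl22l1 led after the germ-cell paralogs (0.33) and Rplp0 was the lower one (-0.13). In the HP1 set S12N against the knockout gave 2 higher (Rpl27, 0.18, and Rpl8, 0.13) and 1 lower (Rpl10l) of 83 (median 0.05, all genes 0.00), where 0.77% of the 14026 tested genes were called higher and 1.12% lower. DESeq2 made 5 calls there and the fit with no filter on low counts 8, and 1 to 5 were made without single libraries: 1 without KO + S12N replicate 1 or 2 or knockout replicate 1 or 3, and 5 without knockout replicate 2.

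The fusions that the titles call dead had lower ribosomal protein mRNA than S12N alone. Dead S12N:SUV2 against S12N gave 0 higher and 77 lower of 83 members (median -0.44, quartiles -0.51 to -0.32, all genes 0.01), where 12% of the 16230 tested genes were called higher and 9.05% lower. The lower members were 31 of the 40S and 46 of the 60S subunit. Rps27 was at 512, 512 and 524 CPM with dead S12N:SUV2 and at the KO + S12N level given above (log2 fold change -0.71, SE 0.06, adjusted p = 2.08e-08). Rpl39 fell by 0.66 and Rps20 by 0.56 on the log2 scale. Rps6, whose protein is phosphorylated downstream of mTOR, was not called: it was at 831, 844 and 871 CPM with dead S12N:SUV2 and 923, 855 and 899.8 CPM with S12N, and the libraries overlapped. Dead S12N:SD2 against S12N gave 1 higher and 67 lower (median -0.28, quartiles -0.37 to -0.21, all genes 0.01), where 6.97% of the 16230 tested genes were called higher and 6.11% lower. Its leader was Rps28, a small 40S protein with a TCTCGCGAGA match in its promoter, at 193, 193 and 182 CPM with dead S12N:SD2 and 337, 294 and 299.5 CPM with S12N (log2 fold change -0.71, SE 0.06, adjusted p = 1.40e-08). The 1 member called higher was Rpl10l (0.31). Both comparisons share the KO + S12N libraries.

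Beside these counts, rRNA genes gave 0 higher and 6 lower of 6 tested (median -3.37) with dead S12N:SUV2 and 0 higher and 6 lower of 6 tested (median -3.09) with dead S12N:SD2, against S12N. The small nucleolar RNA host genes, several of which are TOP mRNAs themselves, gave 0 higher and 7 lower of 9 tested (median -0.69) with dead S12N:SUV2 (Snhg1 -0.94, Gas5 -0.85). Oxidative phosphorylation genes gave 0 higher and 54 lower of 74 tested (median -0.33), while ribosome biogenesis factors gave 14 higher and 1 lower of 39 tested (median 0.12), among them Tsr1 (0.43) and Heatr1 (0.36), which mature the small subunit. Primitive endoderm markers gave 8 higher and 0 lower of 8 tested (median 1.29) and summed to 0.0728 to 0.0817% of counts with dead S12N:SUV2 and 0.0304 to 0.0485% with S12N. Their part in the result was not tested.

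Within each fusion, more members were called higher than lower in the active version against the dead one, though most were not called. The members took 6.55, 6.42 and 6.18% of counts with active and 5.98, 6.26 and 6.29% with dead S12N:SUV2, ranges that overlap. Active against dead S12N:SUV2 gave 22 higher and 0 lower (median 0.12, all genes 0.00), where 9.82% of the 16230 tested genes were called higher and 12.8% lower, and 6 higher and 2 lower on library totals alone. Rps27 was at 656, 604 and 595 CPM with active S12N:SUV2 (0.26), Rps27a rose by 0.26 and Rpl39 by 0.25. The count was 10 without replicate 1 of either version and 14 without replicate 2 of either. Active against dead S12N:SD2 gave 30 higher and 1 lower (median 0.12, all genes -0.01), where 8% of the 16230 tested genes were called higher and 10% lower, and 19 were called without active S12N:SD2 replicate 1. Rps28 was at 303, 278 and 272 CPM with active S12N:SD2 and 193, 193 and 182 CPM with the dead one (log2 fold change 0.59, SE 0.06, adjusted p = 6.16e-08). Rpl39 (0.50) and Rps21 (0.47) followed, and Rpl7a was the lower one (-0.20). Rpl10l lay in the 4 fusion lines between 41.4 and 65.998 CPM, against 14.6 to 19.2 CPM in WT. Rpl39l was at 59.5, 57.1 and 54.5 CPM with active and 43.7, 45.5 and 48.3 CPM with dead S12N:SUV2 (log2 fold change 0.32).

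S12N fused to the HP1a chromodomain gave 0 members higher and 10 lower of 83 against S12N in the HP1 set (median -0.09, all genes 0.01), where 4.26% of the 14026 tested genes were called higher and 2.72% lower. Rplp0, the anchor of the ribosomal stalk, was at 1340.5, 1274 and 1289 CPM with the fusion and 1458, 1530.4 and 1426 CPM with S12N (log2 fold change -0.18, SE 0.04, adjusted p = 0.0014). Rpl7l1 was at 244, 232 and 257 CPM with the fusion and 286, 287 and 272 CPM with S12N (-0.20), and Rps2, a 40S protein, fell by 0.18. Lack of overlap between the groups was a condition for naming these members. Over the family, 38 members lay wholly below S12N and 2 wholly above, and the share without overlap over all tested genes was not computed. The count rested on single libraries: it was 3 without fusion replicate 1 or 2, 34 without fusion replicate 3, 3 without S12N replicate 1 and 6 without S12N replicate 2. Primitive endoderm markers gave 6 higher and 0 lower of 8 tested (median 0.75) and summed to 0.0786 to 0.128% of counts with the fusion and 0.0613 to 0.0678% with S12N. Pluripotency markers gave 0 higher and 7 lower of 8 tested (median -0.17) and summed to 0.516 to 0.552% and 0.582 to 0.589%. Genes of the mitochondrial genome took 2.503 to 2.86% with the fusion and 2.098 to 2.17% with S12N. The part of these shares in the result was not tested.

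In the RBBP5 SUV2 set, RS with S12N:SUV2 had 44 members higher and 1 lower than RS in DMSO (median 0.08, all genes 0.00), where 23.3% of the 15757 tested genes were called higher and 25.4% lower, and 19 higher and 7 lower on library totals alone. Rpl3 and Rpl4, large 60S proteins, rose by 0.21 and 0.15. The germ-cell paralogs moved in opposite directions: Rpl10l was at 31.9, 31.4 and 30.9 CPM with the fusion (log2 fold change -0.41, SE 0.05, adjusted p = 3.79e-08) and Rpl39l at 35.6, 34.1 and 32.8 CPM (log2 fold change 0.44, SE 0.06, adjusted p = 3.30e-07), against the RS values above. Primitive endoderm markers summed to 0.0107 to 0.0115% of counts in RS with S12N:SUV2 and 0.0733 to 0.081% in RS, with 0 higher and 8 lower of 8 tested (median -3.02); their part was not tested. In the RBBP5 SD2 set, RS with S12N:SD2 had 1 member higher than RS and 0 lower (median 0.00, all genes 0.00), where 13% of the 15211 tested genes were called higher and 14.9% lower. That member was Rpl10l, at 97.7, 98.2 and 97.9 CPM with the fusion and 49.9, 50.1 and 51.4 CPM in RS (log2 fold change 0.96, SE 0.09, adjusted p = 3.83e-07). Rpl39l was at 38.9, 38.2 and 39.5 CPM in RS with S12N:SD2 and 33.9, 36.998 and 36.1 CPM in RS and was not called. Chromosome 15 genes were shifted in this line (594 other genes there had a median log2 fold change of 0.51, with 352 called higher and 39 lower), but the 4 members on chromosome 15 had a median of 0.12 with none called. Rpl10l lies on chromosome 12, where 532 other genes had a median of -0.01.

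Rpl13, a 60S protein on chromosome 8, fell furthest in RS against R in both RBBP5 sets, apart from the barely detected Rpl3l in the SUV2 set. In the SUV2 set Rpl13 was at 554, 539 and 544 CPM in RS and 904, 887 and 925 CPM in R (log2 fold change -0.73, SE 0.03, adjusted p = 1.14e-21). In the SD2 set Rpl13 was at 379.5, 416 and 396 CPM in RS and 643, 645 and 664 CPM in R (log2 fold change -0.71, SE 0.12, adjusted p = 6.23e-05). The rest of chromosome 8 was shifted too: 697 other tested genes there had a median log2 fold change of -0.36 in the SUV2 set (153 higher, 443 lower), and 788 had -0.52 in the SD2 set (125 higher, 504 lower). Medians of the other 19 chromosomes ran from -0.04 to 0.12 and from -0.06 to 0.13 in the same sets. In the knockouts of the panel and the HP1 set, chromosome 8 genes had medians of -0.04 and -0.01. Copy number was not measured, and a change of chromosome 8 in the RS lines cannot be told apart from the loss of SUZ12 for this member.

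**Figure D4:**
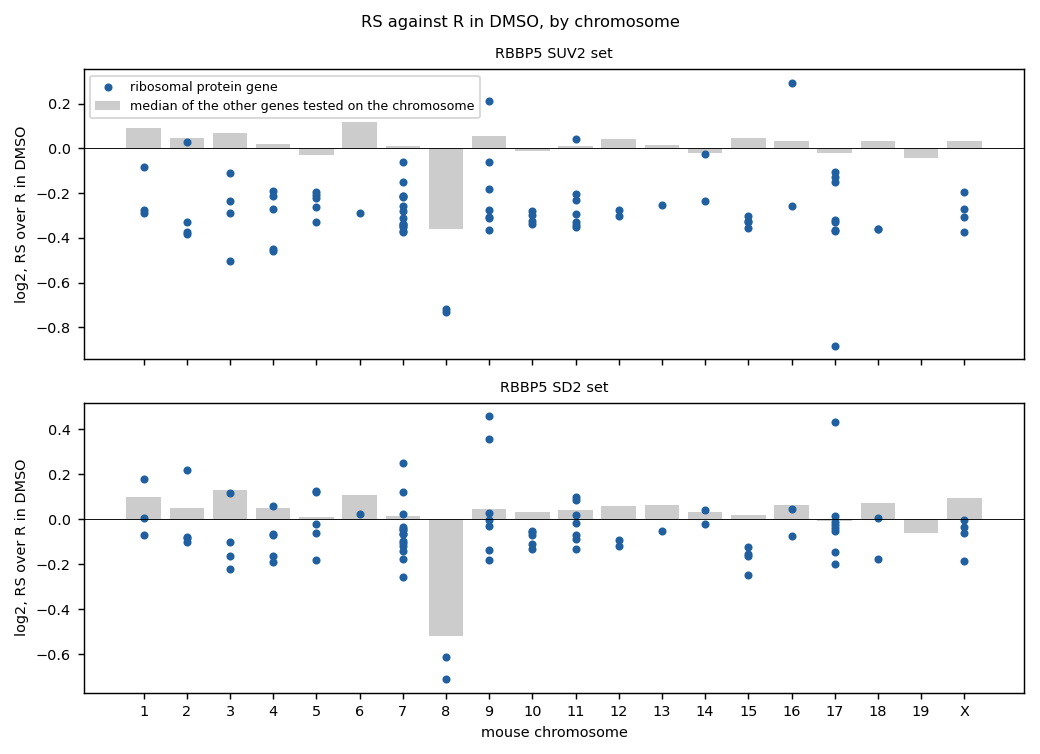
Log2 fold changes of the members (dots) in RS against R with DMSO by chromosome, beside the median of all other genes on that chromosome, in both RBBP5 sets; Rpl10l (chromosome 12) and Rpl39l (chromosome 16) are not shown. On chromosome 8 the other genes sit at -0.36 and -0.52, and Rpl13 below them at -0.73 and -0.71.

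In R of the SUV2 set, the share of members called higher with the degrader was below that over all genes, and the share called lower was slightly above it. In RS more members were called higher than lower. In R of the SUV2 set, dTAG13 against DMSO gave 14 members higher and 25 lower of 83 (median -0.02, all genes 0.00), where 25.4% of the 15757 tested genes were called higher and 26.2% lower, and 20 higher and 18 lower on library totals alone. Of the 40S members 3 rose and 13 fell, and of the 60S members 11 rose and 12 fell. In RS it gave 46 higher and 9 lower (median 0.08, all genes 0.00), where 23.2% of the 15757 tested genes were called higher and 25.1% lower. In RS with S12N:SUV2 it gave 55 higher and 7 lower (median 0.10, all genes 0.00), where 25.9% of the 15757 tested genes were called higher and 27% lower. Rbbp5 RNA itself was at 64.8, 62.9 and 63.95 CPM with dTAG13 and 56.1, 52.9 and 60.5 CPM with DMSO in R.

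Rpl22 and Rpl22l1 moved in opposite directions under the degrader in the SUV2 set. In R of the SUV2 set Rpl22 was at 803, 811 and 796 CPM with dTAG13 and 698, 718 and 698 CPM with DMSO (log2 fold change 0.19, SE 0.02, adjusted p = 3.26e-08). Its paralog Rpl22l1 was at 69.99, 73.4 and 73.5 CPM with dTAG13 and 104, 109.6 and 107 CPM with DMSO (log2 fold change -0.56, SE 0.04, adjusted p = 1.68e-14). The groups did not overlap for either gene. Over the family, 15 members lay wholly above DMSO and 26 wholly below, and the share without overlap over all tested genes was not computed. In RS, Rpl22 had 602, 607 and 619.7 CPM with dTAG13 and 519, 515 and 506 CPM with DMSO (0.25), and Rpl22l1 71.8, 70.3 and 73.003 CPM with dTAG13 and 89.2, 88.2 and 95.2 CPM with DMSO (-0.34). In RS with S12N:SUV2 the log2 fold changes were 0.39 for Rpl22 and -0.50 for Rpl22l1. Rps27l and its partner Rps27 also parted. Rps27l was at 241, 247 and 236 CPM with dTAG13 and 217, 216 and 213 CPM with DMSO in R (log2 fold change 0.16, SE 0.03, adjusted p = 7.07e-06), and rose by 0.21 in RS and 0.28 with S12N:SUV2. Rps27 fell by 0.17, 0.20 and 0.23 in the same lines. A list of 13 p53 targets gave 11 higher and 1 lower of 13 tested (median 0.29) in R, 9 higher and 2 lower of 13 tested (median 0.22) in RS and 10 higher and 1 lower of 13 tested (median 0.36) in RS with S12N:SUV2. Rpl15 and Rpl7a, 60S proteins, rose in all 3 lines: Rpl15 by 0.15, 0.22 and 0.31, and Rpl7a by 0.15, 0.21 and 0.29. Rps4x, the X-linked 40S protein, fell in R (-0.17).

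**Figure D5:**
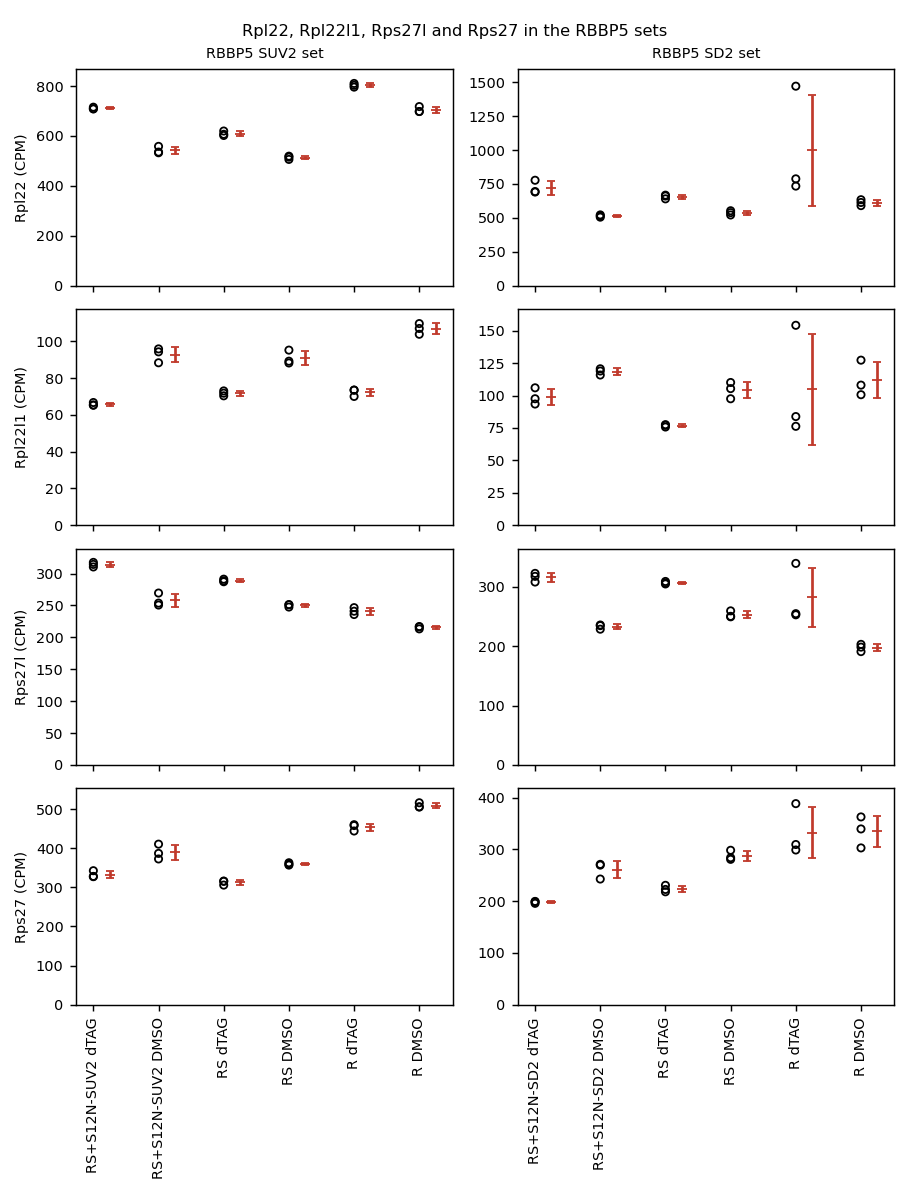
CPM of paralog pairs with degrader and with DMSO in both RBBP5 sets; circles are libraries, red marks the mean ± SD of 3. In R of the SUV2 set, Rpl22 lies at 796 to 811 CPM with dTAG13 against 698 to 718 CPM with DMSO, and Rpl22l1 at 69.99 to 73.5 CPM against 104 to 109.6 CPM; in the SD2 set the third dTAG-13 library of R lies far above the other 2.

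The germ-cell paralogs fell under the degrader where SUZ12 was missing. In RS of the SUV2 set Rpl39l was at 9.16, 10.6 and 10.4 CPM with dTAG13 and 26.3, 24.01 and 25.4 CPM with DMSO (log2 fold change -1.32, SE 0.07, adjusted p = 2.47e-15), and Rpl10l at 26.7, 28.6 and 28.8 CPM with dTAG13 and 43.2, 39.9 and 42.3 CPM with DMSO (log2 fold change -0.57, SE 0.05, adjusted p = 7.45e-11). In RS with S12N:SUV2, Rpl39l was at 16.1, 16.6 and 19.5 CPM with dTAG13 and 35.6, 34.1 and 32.8 CPM with DMSO (-0.97), and Rpl10l at 19.7, 20.9 and 19.1 CPM with dTAG13 and 31.9, 31.4 and 30.9 CPM with DMSO (-0.66). In R, which has SUZ12, Rpl10l was at 17.7, 16.6 and 18.6 CPM with dTAG13 and 19.7, 20.96 and 18.003 CPM with DMSO and was not called (-0.15, adjusted p = 0.054). Rpl39l was at 4.79, 5.08 and 5.85 CPM with dTAG13 and 6.04, 6.14 and 5.57 CPM with DMSO in R, and was not called. The interaction, the effect in RS minus that in R, was -1.15 (SE 0.14, adjusted p = 3.21e-07) for Rpl39l and -0.42 (SE 0.08, adjusted p = 3.39e-04) for Rpl10l. Even with dTAG13, RS kept Rpl10l above every R library. The same direction was seen in the RS lines of the SD2 set, though the interaction of RS minus R called no member there. RS had 18.3, 18.1 and 18.9 CPM of Rpl39l with dTAG-13 and 33.9, 36.998 and 36.1 CPM with DMSO (log2 fold change -0.95, SE 0.11, adjusted p = 5.95e-06), and 42.001, 41.4 and 39.5 CPM with dTAG-13 and 49.9, 50.1 and 51.4 CPM with DMSO for Rpl10l (log2 fold change -0.30, SE 0.09, adjusted p = 0.018). RS with S12N:SD2 had log2 fold changes of -0.69 for Rpl39l and -0.33 for Rpl10l. Rpl3l, the muscle paralog, also fell in all 3 lines of the SUV2 set (-1.70 in R, -1.88 in RS and -0.89 with S12N:SUV2), at levels that rest on few reads.

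Over the family, the effect of dTAG13 in RS exceeded that in R for 31 members and was below it for 2 in the SUV2 set (interaction, median 0.08, all genes -0.01), where 10.7% of the 15757 tested genes were called higher and 8.83% lower. The count was 20 without R dTAG13 replicate 3 and 16 on library totals alone (14 higher, 2 lower). The leaders were Rps21 with 0.18 (SE 0.04, adjusted p = 6.47e-04), Rps20 with 0.16 (SE 0.03, adjusted p = 3.67e-04) and Rps27a with 0.15 (SE 0.03, adjusted p = 0.001). Rps20, for example, was at 1066, 1059.5 and 1058 CPM with dTAG13 and 1049.6, 1018 and 1040.0 CPM with DMSO in RS, and at 1299.6, 1320.4 and 1282 CPM with dTAG13 and 1440.4, 1400.1 and 1408 CPM with DMSO in R. The effect in RS with S12N:SUV2 minus that in RS was higher for 4 members and lower for 1 (median 0.04, all genes 0.01), where 5.07% of the 15757 tested genes were called higher and 5.65% lower. TMM computed without the members left 2 higher and 1 lower, and leaving out single libraries left 1 to 5: 1 without RS dTAG13 replicate 1, 2 without S12N:SUV2 DMSO replicate 3, S12N:SUV2 dTAG13 replicate 1 or 3, RS DMSO replicate 1 or RS dTAG13 replicate 3, and 3 without replicate 2 of any of the 4 groups. Among them were Rpl39l with 0.36 (SE 0.10, adjusted p = 0.018) and Rpl22 with 0.14 (SE 0.03, adjusted p = 0.0035). Rpl11 had 0.13 (SE 0.04, adjusted p = 0.03) and Rpl22l1 -0.16 (SE 0.05, adjusted p = 0.041). In the SD2 set the 2 interactions called no member: RS minus R had a median of -0.29 (all genes -0.07), where 5.19% of the 15211 tested genes were called higher and 6.92% lower, and RS with S12N:SD2 minus RS a median of 0.15 (all genes 0.03), where 0.822% of the 15211 tested genes were called higher and 1.24% lower. At an unadjusted p under 0.05 they had 2 and 1 members by edgeR, and DESeq2 called 1 in the first and 0 in the second. Without R dTAG-13 replicate 1, 2 or 3, edgeR called 2, 2 and 3 in the first.

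In R of the SD2 set, dTAG-13 against DMSO gave 58 members higher and 2 lower of 84 (median 0.43, all genes 0.04), where 21.6% of the 15211 tested genes were called higher and 20.2% lower. This value rested on R dTAG-13 replicate 3, the library in which the members took 8.34% of counts: without it 37 were higher and 7 lower, with a median of 0.09. Leaving out R DMSO replicate 1, 2 or 3 gave 24, 37 and 35 calls. Rpl22 was at 734, 787 and 1471 CPM with dTAG-13 and 589.8, 633 and 613 CPM with DMSO (log2 fold change 0.70, SE 0.17, adjusted p = 0.0032), and its log2 fold change was 0.31 without that library. Rpl22l1 was at 76.3, 83.8 and 154 CPM with dTAG-13 and 101, 127 and 108 CPM with DMSO and was not called, but was called at -0.49 without it. Rpl15 was at 329.8, 337 and 453 CPM with dTAG-13 and 253, 273 and 255 CPM with DMSO (log2 fold change 0.52, SE 0.09, adjusted p = 1.54e-04). In RS dTAG-13 gave 5 higher and 4 lower (median 0.15, all genes -0.01), where 15.9% of the 15211 tested genes were called higher and 22.3% lower, and 12 higher and 6 lower on library totals alone. In RS with S12N:SD2 it gave 25 higher and 4 lower (median 0.30, all genes 0.00), where 18.5% of the 15211 tested genes were called higher and 22.9% lower; the count was 15, 15 and 12 without its DMSO replicates 1, 2 and 3, and 17 without its dTAG-13 replicate 3. Rpl15 rose in both lines as well (0.45 and 0.57), at 374, 358 and 362 CPM with dTAG-13 and 267, 266 and 271 CPM with DMSO in RS. Rps27l rose by 0.51, 0.28 and 0.44 in R, RS and RS with S12N:SD2, and Rps27 fell by 0.36 and 0.40 in the last 2. Rpl23a (60S) rose in R and RS (0.52 and 0.28), Rpl9 (60S) in RS (0.24) and Rps25 (40S) in RS with S12N:SD2 (0.37). The p53 targets gave 10 higher and 0 lower of 13 tested (median 0.57), 7 higher and 0 lower of 13 tested (median 0.26) and 8 higher and 0 lower of 13 tested (median 0.60) in the 3 lines.

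In the SUZ12 degron line no member was called in the first 8 h of IAA. The medians were -0.02, -0.10 and 0.01 at 2, 4 and 8 h (all genes 0.00, -0.01 and -0.01), and none of the 84 members had an unadjusted p under 0.05 by edgeR at any of these times; DESeq2 also called 0. Few genes were called at all: 0% higher and 0% lower at 2 h, 0.00713% and 0% at 4 h, and 0.0285% and 0.00713% at 8 h. The common biological coefficient of variation was 0.169 here, the largest of the datasets. In simulated counts for 2 h, 0% of genes changed by 0.2 on the log2 scale were called. The share was 9.09% for changes of 0.5 and 68.2% for changes of 1. These shares are not specific to the members, and how small a change in a member would be called was not tested. At 24 h 50 members were higher and 1 lower than in DMSO (median 0.75, quartiles 0.41 to 1.11, all genes 0.00), where 16.4% of the 14016 tested genes were called higher and 17.9% lower. Of the 40S members 21 rose and 1 fell, and of the 60S members 29 rose. The libraries behind this value differed: Rpl41, the smallest ribosomal protein, was at 7759, 11838 and 2873 CPM at 24 h against 1509, 2026 and 2500.1 CPM in DMSO (log2 fold change 1.90, SE 0.34, adjusted p = 7.55e-04). Without replicate 3, 76 members were higher and 1 lower (median 1.06). Library totals alone gave 49 higher and 7 lower, with the median of all genes at -0.14. The count was 33 without DMSO replicate 1 and 29 without 24 h replicate 2. Annotated rRNA genes gave 5 higher and 0 lower of 5 tested (median 2.30) and snoRNA host genes 8 higher and 0 lower of 11 tested (median 1.01) at 24 h; their part was not tested. Suz12 RNA in these 3 libraries was at 105, 93.2 and 210.2 CPM, against 209, 179 and 163 CPM in DMSO.

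At 48 h the members took 12.06 to 12.83% of counts in the 3 libraries, against 9.29 to 11.35% in DMSO, and 12 members were higher and 4 lower of 84 (median 0.22, quartiles -0.05 to 0.50, all genes 0.00), where 20.2% of the 14016 tested genes were called higher and 23.8% lower. On library totals alone 27 were higher and 9 lower. Against DMSO the libraries at 48 h also held more counts of the neural list (0.0234 to 0.0274% at 48 h, 0.00734 to 0.00929% in DMSO), of the fibroblast list (0.00115 to 0.00143% and 1.42e-04 to 1.67e-04%), of the primitive endoderm list (0.00215 to 0.00227% and 5.01e-04 to 6.69e-04%) and of annotated rRNA genes (0.0742 to 0.0873% and 0.0311 to 0.0392%); their part was not tested. The counts were 3 higher and 4 lower without DMSO replicate 1 or without 48 h replicate 1, and 4 and 4 without DMSO replicate 2. Rps27l was at 388, 471 and 565 CPM in DMSO, 403, 524 and 509 CPM at 2 h, 461, 432 and 481 CPM at 4 h, 474, 498 and 557 CPM at 8 h, 1483, 1798 and 632 CPM at 24 h and 1370.0, 998 and 1078 CPM at 48 h (log2 fold change 1.28, SE 0.27, adjusted p = 0.0011 at 48 h). Rpl22l1 was at 251, 282 and 327 CPM in DMSO, 832, 1094 and 343 CPM at 24 h and 612, 486 and 569.8 CPM at 48 h (0.96), and Rps12, a 40S protein of the beak, rose by 1.01. Rps26, at the mRNA exit of the 40S subunit, was the 1 member lower at both times (log2 fold changes -0.42 and -0.47). It was at 937, 975 and 974 CPM in DMSO, 736, 788 and 629 CPM at 24 h and 659, 700.1 and 730.1 CPM at 48 h. Rpl4 fell to 2259, 2319.6 and 2415 CPM at 48 h, against 3117, 3315 and 3184 CPM in DMSO (-0.46), and Rpl28 by 0.51. The germ-cell paralogs were higher at 48 h than in DMSO, as much of the family was (median 0.22, upper quartile 0.50). Rpl10l was at 103, 125 and 144 CPM in DMSO, 299, 380.0 and 138 CPM at 24 h and 193, 193 and 200.1 CPM at 48 h (0.66). Rpl39l was at 14.97, 18.1 and 26.7 CPM in DMSO, 56.4, 63.2 and 18.1 CPM at 24 h and 46.4, 36.7 and 38.05 CPM at 48 h (1.02). All 3 libraries at 48 h lay above DMSO for both, as they did for 44 of the 84 members. The share of all tested genes that did so was not computed. At 24 h, replicate 3 lay within the DMSO range for both.

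Members with a known role outside the ribosome or at its edge were called in the following comparisons. Of the 5S particle, Rpl5 rose with SUZ12 (0.25) and S12N (0.22) in the panel and fell with dead S12N:SUV2 against S12N (-0.35) and in RS against R of the SUV2 set (-0.33). Rpl11 gave 0.17, -0.43 and -0.21 with SUZ12, with dead S12N:SUV2 and in RS, and -0.22 in the HP1-set knockout. Of the stalk, which recruits translation factors, Rplp0, Rplp1 and Rplp2 fell by 0.23, 0.52 and 0.45 with dead S12N:SUV2 against S12N and by 0.19, 0.18 and 0.34 in RS against R. Rpsa, also known as the laminin receptor, gave 0.24 with SUZ12, -0.30 with dead S12N:SUV2, -0.31 in RS and -0.15 in the HP1-set knockout. Rps6 was called in none of the 8 panel comparisons, in which its log2 fold changes lay between -0.14 and 0.13, but fell in RS against R (-0.27). Rps27a fell in the panel knockout (-0.15) and with dead S12N:SUV2 (-0.50) and rose with S12N (0.32).

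Other parts of the translation machinery were set beside the members in the SUZ12 losses. In the panel knockout against WT, ribosome biogenesis factors gave 0 higher and 15 lower of 39 tested (median -0.14), with Dkc1, the pseudouridine synthase, at -0.44 and the acetyltransferase Nat10 at -0.36. RNA polymerase I subunits and factors gave 0 higher and 6 lower of 14 tested (median -0.20), translation factors 0 higher and 10 lower of 25 tested (median -0.09) with Eef1b2 at -0.35, mitochondrial ribosomal proteins 5 higher and 24 lower of 76 tested (median -0.11), oxidative phosphorylation 4 higher and 25 lower of 74 tested (median -0.12) and proteasome subunits 0 higher and 12 lower of 31 tested (median -0.14). In RS against R of the SUV2 set, translation factors gave 4 higher and 16 lower of 25 tested (median -0.15), led by Eif4b (-0.69) and Eef1b2 (-0.66), ribosome biogenesis factors 9 higher and 21 lower of 39 tested (median -0.08), oxidative phosphorylation 9 higher and 54 lower of 74 tested (median -0.18), proteasome subunits 18 higher and 7 lower of 31 tested (median 0.08) and genes of the mitochondrial genome 7 higher and 0 lower of 7 tested (median 1.35). Fau, a ribosomal protein of the 40S subunit whose symbol the rule does not match, was at -0.45 with dead S12N:SUV2 against S12N. Hox genes, classic PRC2 targets, gave 25 higher and 0 lower of 26 tested (median 4.01) in the panel knockout, 28 higher and 0 lower of 28 tested (median 5.66) and 33 higher and 0 lower of 33 tested (median 3.26) in RS of the SUV2 and SD2 sets and 22 higher and 0 lower of 22 tested (median 6.00) in the HP1-set knockout.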

How the data were processed

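Poly(A) RNA libraries of 31 groups with 3 libraries each, 93 in all, were analysed in 5 datasets. The authors deposited unnormalized counts of reads for each gene. They were made, per the submitters' processing notes, with Trim Galore 0.4.5, STAR 2.4, Picard and HTSeq 0.9.1 for the panel and the RBBP5 SUV2 set, Trim Galore 0.6.7, HISAT2 2.2.1 and featureCounts 2.0.8 for the RBBP5 SD2 set, and Trimmomatic and HISAT2 for the degron and HP1 sets, all on mm10; the counting tool of the last 2 was not given in the sources used here. Panel columns were matched to the labels by wording (E14JU as WT, JUS2_59 alone as Suz12 KO, JUS259 with WT as KO + SUZ12, VEFS as S12N, FullH2 as the SUV2 fusion, SET as the SD2 fusion, and dead for the dead versions); the WT and Suz12 KO columns also carry Ebdiff and day0, which no other panel column does. Per-sample columns left unused numbered 0.

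Each dataset was fitted alone with edgeR 4.0.16 in R 4.3.3: TMM factors, a filter on low counts (filterByExpr with the groups), 1 mean per group and the two-sided quasi-likelihood F test, with Benjamini-Hochberg adjustment over all tested genes and a threshold of 0.05. SE is the log2 fold change over the square root of F, and every group mean has n = 3. Genes called higher or lower passed this threshold. CPM use the TMM-scaled library size; per-kb levels divide by the length of the main transcript. Alternatives were median-of-ratios size factors, no filter on low counts, DESeq2 1.42.0, TMM without the members, library totals alone, replicate as a block and leaving out each library. The fit was tested on simulated counts with known changes.

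The members, the other gene lists and the tests were chosen with earlier results of these data known. Named members are up to 3 per direction and comparison with the smallest p and no overlap between groups, the paralogs with their partners, Rpl5, Rpl11, the stalk, Rps6, Rpsa, Rps27a and the highest and lowest members; of other lists up to 2 genes per comparison. Biological triplicates are stated in the labels for 4 datasets; for the RBBP5 SD2 set nothing says so, and its p-values measure only the spread between these samples. Chi-square values per degree of freedom between replicates ran from 1.24 to 168, so all were kept as separate libraries. In the panel's Suz12 KO against WT, same-numbered libraries deviated together (r = 0.17, 0.12 and 0.122), so the blocked counts stand beside the result; in no other comparison did every pair exceed 0.1. Libraries held 5.48 to 29.97 M counts, which sets the precision for low members such as Rpl3l and Rpl24. Some genes are not reported here.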

Additional observations from a re-analysis of the deposited data

Results flagged for a closer look

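The effect of dTAG13 differed between lines of the RBBP5 SUV2 set by a test of the interaction for 33 members between RS and R, where 10.7% of all tested genes were called higher and 8.83% lower, and for 5 members between RS with S12N:SUV2 and RS, where the shares were 5.07% and 5.65%. Of the 83 members, 5 in either direction is no larger a share than that over all genes. For RS minus R the log2 differences were 0.18 for Rps21, 0.16 for Rps20, 0.15 for Rps27a, -1.15 for Rpl39l and -0.42 for Rpl10l. For RS with S12N:SUV2 minus RS they were 0.36 for Rpl39l, 0.14 for Rpl22, 0.13 for Rpl11 and -0.16 for Rpl22l1. No explanation was weighed for any of these.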

How the results depend on the processing

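Counts of members called at an adjusted p under 0.05 moved by over 1.5 times, or changed their prevailing direction, in the following cases, and the cause was not tested. On library totals alone the counts were 25 for Suz12 KO against WT in the panel (25 higher, none lower, a reversed balance), 28 for KO + SUZ12 against Suz12 KO, 44 for KO + S12N against KO + SUZ12, 8 for active against dead S12N:SUV2, 26 for RS with S12N:SUV2 against RS, 16 for the dTAG13 effect in RS minus R, 14 for RS against R and 18 for dTAG-13 in RS of the RBBP5 SD2 set, 2 for its interaction of RS minus R, 36 at 48 h of IAA and 21 for the HP1-set knockout. With no filter on low counts they were 7 for Suz12 KO against WT (5 higher, 2 lower, reversed), 15 for dTAG-13 in RS of the SD2 set, 8 for S12N against knockout and 21 for S12N-HP1a against S12N in the HP1 set. DESeq2 gave 28 for KO + S12N against KO + SUZ12, 5 for S12N against knockout in the HP1 set and 1 for the SD2-set interaction of RS minus R. TMM without the members gave 3 for S12N:SUV2 minus RS. RS with S12N:SD2 against RS had 2 calls with no filter, with DESeq2, on library totals and with replicate as a block. Elsewhere the replicate block kept every count within 1.5 times; apart from the panel knockout the numbers did not pair the samples.

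The 24 h replicate 3 alone against DMSO, chosen after seeing the data, gave 39 calls with the direction reversed, and log2 fold changes of -0.18 for Rpl11, -0.12 for Rpl39l, -0.0017 for Rps27a and -0.17 for Rps6. That arm is 1 library, assumed to vary like the other groups, so these calls have no replicate check. On library totals alone Rpl7l1 in RS against R of the SUV2 set was at 0.0028.

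Leaving out 1 library at a time, the counts ran from 9 to 16 for Suz12 KO against WT, 36 to 56 for KO + SUZ12 and 28 to 53 for KO + S12N against Suz12 KO, 10 to 16 for KO + S12N against KO + SUZ12, 10 to 23 and 19 to 28 for active against dead S12N:SUV2 and S12N:SD2, 20 to 35 and 1 to 5 for the interactions of the SUV2 set, 24 to 74 for dTAG-13 in R and 12 to 20 in RS with S12N:SD2 of the SD2 set, 0 to 3 for its interaction of RS minus R, 29 to 77 at 24 h and 7 to 14 at 48 h of IAA, and in the HP1 set 1 to 5 for S12N against knockout and 3 to 34 for S12N-HP1a against S12N. Among the named members' values over all comparisons, DESeq2 kept the direction and call of 662, ended 9 calls and added 18, and leaving out 1 library kept 4342, ended 280 and added 46.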
